A study of Mus musculus with 12 samples.

Results

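The libraries described here are whole blood of mice after 11 days of CPI-0209, with all their collection times averaged, set against vehicle. They were chosen by their labels: all 9 CPI-0209 libraries and all 3 vehicle libraries, which are all 12 of the series. The hosts were of the strain CB17-SCID and bore a tumour grown from HT1376 cells, a human line from bladder cancer. CPI-0209 was given by mouth once daily at 35 mg per kg, and blood was taken 1, 6 or 24 h after the last dose, with 3 libraries for each time. The vehicle mice carried the same xenograft and were dosed for the same 11 days, and the labels do not say at which hour they were bled. Nor do the labels say that the libraries are of separate mice, so p-values measure the spread between these libraries. The strain limits the blood as a model, because mice with the scid mutation make few mature B and T cells. In each comparison the mean of the 1, 6 and 24 h group means, each time weighted equally, was set against the vehicle mean. A large difference at 1 time alone can also move this mean.

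CPI-0209 (tulmimetostat) inhibits EZH2 and EZH1, the catalytic subunits of Polycomb repressive complex 2 (PRC2), which methylates histone H3 at lysine 27 and keeps developmental and lineage genes silent. Inhibitors of this kind leave the complex itself in place, and the mark is then lost gradually as cells divide. Whole blood holds neutrophils, monocytes, NK cells, platelets and young red cells (reticulocytes). Reticulocytes have lost their nucleus but still carry much RNA, so their transcripts can make up a large share of blood RNA.

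Library totals ran from 6496573 to 9978215 counts over 55367 genes, of which 13384 had enough counts to be tested. Levels are given as library-scaled counts (CPM), and differences as log2 fold changes of the mean of the CPI-0209 times over vehicle, with their standard error (SE). The summed CPM of 7 reticulocyte markers was 37065 to 44378 at 1 h, 62770 to 73818 at 6 h and 20456 to 55424 at 24 h, against 35589 to 40389 in vehicle. Neutrophil, monocyte, platelet and NK markers were present in every library. The B cell gene Ms4a1 and the keratin gene Krt5 were at 0 throughout, and 5 T cell markers summed to at most 5.94 CPM. In bulk blood, fewer cells of a type and less RNA per cell cannot be told apart.

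Many more genes were higher than lower after CPI-0209. At an adjusted p under 0.05, 118 genes were higher (0.882% of those tested) and 7 were lower (0.0523%), 125 in all (0.934%). The genes called higher had a median log2 fold change of 1.29, within a range of 0.57 to 5.19, and for 86 of them it was at least 1. Across all tested genes the median was -0.03. For 63 of the 118, all 9 CPI-0209 libraries lay above all 3 vehicle libraries, a separation seen in 1.3% of all tested genes. Another 47 had 8 libraries above and 8 had 7. All 7 genes called lower had all 9 CPI-0209 libraries below vehicle, as had 0.77% of tested genes. Of the 118, 117 were protein coding.

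Some were almost silent in vehicle blood and others were abundant there. A vehicle mean under 1 CPM was found for 8 of the 118, whose median log2 fold change was 3.81. Another 32 had 1 to 10 CPM in vehicle (median 1.71), 51 had 10 to 100 CPM (median 1.11) and 27 had over 100 CPM (median 1.17). For 8673 of the 13384 tested genes (64.8%) the 95% interval of the log2 fold change lay within 1 unit of no change. Among the 3607 genes with a mean of at least 5 log2 CPM this held for 3304 (91.6%).

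**Figure D1:**
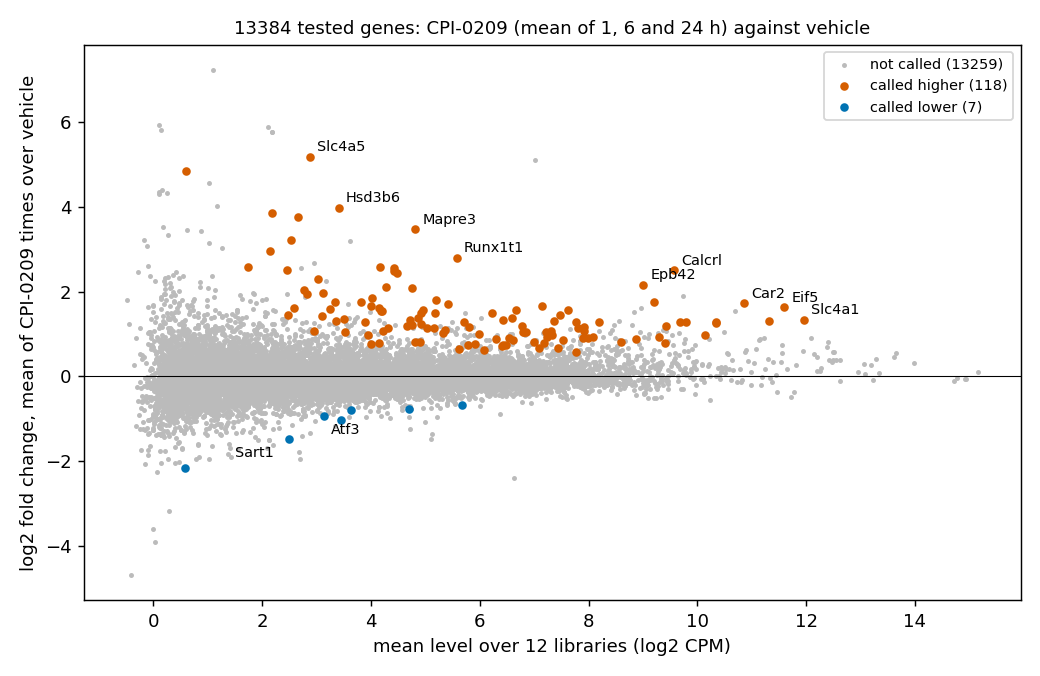
Log2 fold change of the mean of the CPI-0209 times over vehicle (y axis) against the mean level in log2 CPM over 12 libraries (x axis) for 13384 tested genes. The 118 genes called higher, in orange, spread over the whole range of levels, whereas the 7 called lower are in blue.

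How many genes passed depended on single libraries. Without vehicle replicate 1, 2 or 3, 27, 14 or 49 genes were higher. Without 1 h replicate 1 or 3 the count was 78 or 70, and without 6 h replicate 1 or 3 it was 75 or 78. It was 322 without 24 h replicate 1 and 224 without 24 h replicate 3. When the 9 CPI-0209 libraries were treated as 1 group, so that differences between times counted as spread, 5 genes were higher and 0 lower by edgeR: Car8 (adjusted p = 0.005), Mapre3 (adjusted p = 0.005), Runx1t1 (adjusted p = 0.0088), Hsd3b6 (adjusted p = 0.024) and Cpne8 (adjusted p = 0.041). With the mean of 1 and 24 h alone, which leaves out the 6 h libraries, 20 were higher and 0 lower. Each of these 20 was also among the 118. The genes named here that passed with it were Slc4a5, Mapre3, Car8, Gpd1, Runx1t1, Rragd, Pcx, Scd1, Hsd3b6, Rhbdf1, Cystm1, Ccdc92b, Cpne8, Syt13, Rims3, Sla, Calcoco1 and Pdzk1ip1, and all others named as called lost their call. In all 12 fits that left out 1 library, 13 of the 118 passed, among them Slc4a5, Mapre3, Car8, Gpd1, Runx1t1, Rragd, Pcx, S100a13, Scd1, Syt13, Calcoco1 and Pdzk1ip1. Car8, Mapre3 and Runx1t1 also passed in all 24 alternatives tried. Cpne8, Syt13, Calcoco1 and Pdzk1ip1 are named on the strength of their values, outside the rule, as are Ptprn, Rims3, Sla, Calcrl, Plag1 and Ptpn14 below.

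The genes that stood apart in all libraries were led by Runx1t1 and Mapre3. Runx1t1 encodes ETO, a corepressor known from its fusion with RUNX1 in myeloid leukaemia. It had 41.5, 41.6 and 49.97 CPM (1 h), 81.7, 91.95 and 106 CPM (6 h) and 28.2, 51.01 and 54.5 CPM (24 h) after CPI-0209, against 8.25, 9.35 and 6.74 CPM in vehicle. Even the lowest treated library, 24 h replicate 1, was about 3 times the highest vehicle library. The rise was 6.99-fold (95% interval 4.997 to 9.77), with a log2 fold change of 2.80 (SE 0.23, adjusted p = 6.6e-05). Mapre3, which binds the growing ends of microtubules, had 32.95, 27.03 and 26.9 CPM (1 h), 38.7, 35.6 and 83.04 CPM (6 h) and 27.6, 19.4 and 33.8 CPM (24 h) after CPI-0209, against 2.79, 2.79 and 3.69 CPM in vehicle. Its libraries were alike at 1 and 24 h, and 6 h replicate 3 stood above all others. The mean rise was 11.1-fold (95% interval 6.91 to 17.9), or 3.48 (SE 0.32, adjusted p = 1.9e-04) on the log2 scale. Of 12 tested genes of the RUNX and ETO family, Runx1t1 was the only 1 to pass, with a list median of 0.03, against 0.934% of all tested genes. Its relative Cbfa2t3 had 0.90 (SE 0.22, adjusted p = 0.081) and the red cell factor Tal1 had 0.41 (SE 0.14, adjusted p = 0.26).

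In GENCODE M21 on GRCm38, Runx1t1 is ENSMUSG00000006586, chromosome 4, 13743436 to 13893649, plus strand, and Mapre3 is ENSMUSG00000029166, chromosome 5, 30814641 to 30866106, plus strand. The promoters of Mapre3 (chr5:30814391-30814690, plus strand), Cpne8 (chr15:90679339-90679638, minus strand) and Hsd3b6 (chr3:98814394-98814693, minus strand), from RefSeq on GRCm38.p6, are printed because these were the genes with a promoter in the table among the 5 that passed with all treated libraries as 1 group. They run from 250 bases before to 50 after the start, 5′ to 3′, with CG pairs in capitals, the dinucleotide whose density marks the promoters that PRC2 is known to occupy.
Mapre3: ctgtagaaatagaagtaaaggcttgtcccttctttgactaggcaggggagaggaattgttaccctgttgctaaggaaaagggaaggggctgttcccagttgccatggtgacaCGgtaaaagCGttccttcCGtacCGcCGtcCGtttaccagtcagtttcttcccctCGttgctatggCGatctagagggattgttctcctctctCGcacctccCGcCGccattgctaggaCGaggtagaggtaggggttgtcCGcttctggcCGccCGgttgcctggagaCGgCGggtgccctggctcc
Cpne8: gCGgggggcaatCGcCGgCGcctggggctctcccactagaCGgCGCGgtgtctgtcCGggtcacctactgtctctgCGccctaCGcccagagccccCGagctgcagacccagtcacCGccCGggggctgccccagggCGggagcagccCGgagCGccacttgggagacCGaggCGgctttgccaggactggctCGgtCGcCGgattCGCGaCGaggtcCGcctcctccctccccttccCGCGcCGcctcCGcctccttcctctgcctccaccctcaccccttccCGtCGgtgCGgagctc
Hsd3b6: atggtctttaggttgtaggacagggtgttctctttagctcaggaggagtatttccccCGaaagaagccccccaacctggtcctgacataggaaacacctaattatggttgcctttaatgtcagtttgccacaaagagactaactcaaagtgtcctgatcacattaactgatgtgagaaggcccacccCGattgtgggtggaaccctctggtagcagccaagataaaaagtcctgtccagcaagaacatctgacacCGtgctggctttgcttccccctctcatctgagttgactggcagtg
There were 17 CG pairs in the Mapre3 window, 32 in that of Cpne8 and 3 in that of Hsd3b6, against a median of 21 over the 9484 tested genes with a promoter. A promoter was found for 87 of the 118 genes called higher. Since that is under 80% of them, the check of promoter composition over the whole set is void.

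Cpne8, a calcium-dependent membrane-binding protein, differed from most others in being highest at 24 h. It had 4.49, 7.30 and 9.37 CPM (1 h), 6.87, 7.67 and 8.87 CPM (6 h) and 6.87, 12.2 and 11.9 CPM (24 h) after CPI-0209, against 2.21, 1.83 and 2.42 CPM in vehicle. All treated libraries lay above vehicle, although 1 h replicate 1 was less than 2 times the highest vehicle library. Its log2 fold changes were 1.72, 1.86 and 2.26 at 1, 6 and 24 h, with 1.94 (SE 0.30, adjusted p = 0.0074) for their mean. Cpne8 lost its call without vehicle replicate 1 or 2.

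Of 16 tested microtubule and vesicle genes 2 were higher, Mapre3 and Rundc3a (list median 0.24), against 0.882% of all tested genes. Rundc3a, an adaptor of vesicles and motors, had 23.96, 29.4 and 17.4 CPM (1 h), 30.6, 31.1 and 75.5 CPM (6 h) and 10.6, 8.99 and 24.4 CPM (24 h) after CPI-0209, against 5.23, 4.62 and 3.94 CPM in vehicle. The 6 h replicate 3 library was again far above its group. The log2 fold change was 2.44 (SE 0.39, adjusted p = 0.0086), and Rundc3a lost its call without any 1 of the 3 vehicle libraries. Syt13, Rims3, Rph3al and Ptprn are in none of the lists and stand for no group. Syt13, of the synaptotagmin family of vesicle proteins, had 8.58, 13.8 and 15.1 CPM (1 h), 21.2, 21.04 and 27.1 CPM (6 h) and 24.6, 19.9 and 25.5 CPM (24 h) after CPI-0209, against 3.49, 5.48 and 6.74 CPM in vehicle. Its 6 and 24 h libraries overlapped and its 1 h libraries were the lowest treated ones. The mean difference was 1.85 (SE 0.24, adjusted p = 0.003). Rims3, which acts at the sites of vesicle release, was highest at 24 h, with 46.2, 41.2 and 39.4 CPM (1 h), 12.4, 33.2 and 30.6 CPM (6 h) and 81.9, 61.2 and 44.1 CPM (24 h) after CPI-0209, against 11.7, 15.05 and 16.2 CPM in vehicle. One 6 h library fell inside the vehicle range. The mean log2 fold change of Rims3 was 1.51 (SE 0.27, adjusted p = 0.019), which did not pass without any 1 of the vehicle libraries or when scaled by library totals alone. Rph3al, which binds Rab proteins on secretory vesicles, averaged 15.7 ± 2.15, 47.3 ± 14.8 and 9.71 ± 4.18 CPM at 1, 6 and 24 h, against 4.48 ± 0.984 CPM in vehicle (SD, n = 3). It rose by 2.11 (SE 0.29, adjusted p = 0.0036) and lost its call without vehicle replicate 2. Ptprn, a protein of dense-core vesicles, had 12.4, 5.47 and 10.2 CPM (1 h), 28.8, 21.2 and 26.99 CPM (6 h) and 18.2, 30.001 and 19.1 CPM (24 h) after CPI-0209, against 6.28, 6.56 and 3.69 CPM in vehicle. One 1 h library of Ptprn fell inside the vehicle range, and its mean difference of 1.66 (SE 0.28, adjusted p = 0.012) did not pass without any 1 of the vehicle libraries.

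Ptprn lies 1335 bases from Dnajb2, a co-chaperone gene on the opposite strand that was also called higher (log2 fold change 1.44 (SE 0.30)). Rundc3a lies 27200 bases from Slc4a1, also on opposite strands. The genes of neither pair overlap in the annotation. Whether reads run across the 1335 bases between Dnajb2 and Ptprn was not tested. The strand setting of the counting is not known here, which bears on genes that do overlap.

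**Figure D2:**
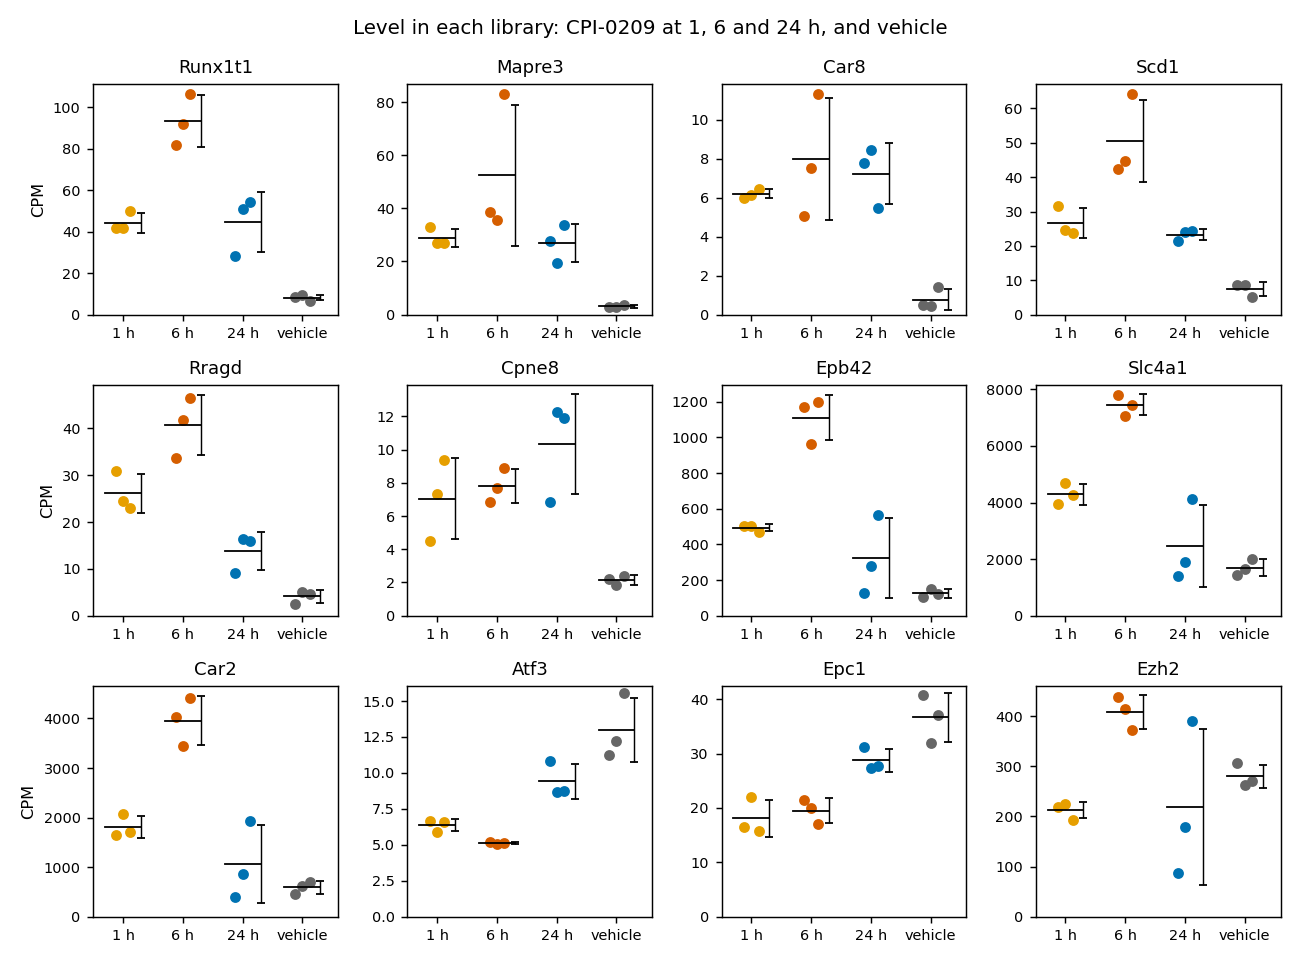
CPM in each library (points), with the group mean (line) and SD (bar, n = 3), for 12 genes at 1, 6 and 24 h after CPI-0209 and in vehicle. Runx1t1, Mapre3, Car8, Scd1, Rragd and Cpne8 lie above vehicle in every treated library, whereas in 24 h replicate 1 Epb42 lies within the vehicle range and Slc4a1 and Car2 lie below it, and Ezh2 overlaps vehicle at 24 h.

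Bicarbonate transporters and carbonic anhydrases gave 4 genes higher of 12 tested, with a list median of 0.41. They divide into genes that are scarce in blood, Slc4a5 and Car8, and the red cell genes Slc4a1 and Car2. Over all tested genes 0.882% were higher. The lists were drawn up with earlier results of these data known, so a count of calls in a list is no test of the group. Slc4a5, a sodium bicarbonate cotransporter, had 669 counts over the 9 treated libraries, against 5 over the 3 vehicle libraries. Scaled to library size this is a ratio of 47.8 (95% exact binomial interval 20.4 to 148, counting error only). Its level was 5.17, 4.79 and 6.14 CPM (1 h), 12.1, 17.1 and 27.1 CPM (6 h) and 4.89, 3.57 and 4.22 CPM (24 h) after CPI-0209, against 0, 0.537 and 0 CPM in vehicle. The groups did not overlap, and 6 h replicate 3 was highest. The fitted log2 fold change of 5.19 (SE 0.60, adjusted p = 0.001) depends on how zero counts are treated. Car8, which is related to carbonic anhydrases but lacks their activity, had 5.99, 6.16 and 6.46 CPM (1 h), 5.08, 7.55 and 11.3 CPM (6 h) and 7.80, 8.45 and 5.47 CPM (24 h) after CPI-0209, against 0.465, 0.430 and 1.40 CPM in vehicle. It was among the 8 called genes whose log2 fold changes varied least over the times, with 3.03, 3.39 and 3.25 at 1, 6 and 24 h. Their mean was 3.22 (SE 0.41, adjusted p = 0.0026), a rise of 9.34-fold (95% interval 5.07 to 17.2).

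Slc4a1, the anion exchanger of the red cell membrane, had 3932, 4674 and 4253 CPM (1 h), 7815, 7073 and 7466 CPM (6 h) and 1400.3, 1887 and 4115 CPM (24 h) after CPI-0209, against 1432, 1645 and 2013 CPM in vehicle. Car2, the main carbonic anhydrase of red cells, had 1650.0, 2068 and 1709 CPM (1 h), 4026, 3437 and 4407 CPM (6 h) and 392, 871 and 1924 CPM (24 h) after CPI-0209, against 456, 618 and 705 CPM in vehicle. Both were above vehicle in all 1 and 6 h libraries and in 24 h replicate 3. In 24 h replicate 1 both were below all vehicle libraries. The log2 fold changes were 1.34 (SE 0.28, adjusted p = 0.037) for Slc4a1 and 1.73 (SE 0.36, adjusted p = 0.037) for Car2. Both lost their call without any 1 of the vehicle, 1 h or 6 h libraries. Slc26a6, another anion exchanger of the list, had -1.68 (SE 0.38, adjusted p = 0.057) and did not pass by edgeR. DESeq2 and limma-voom each called 1 gene of this list lower.

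Enzymes of glycerol, pyruvate and central carbon metabolism gave 3 genes higher of 23 tested, against 0.882% of all tested genes, with a list median of 0.11. Gpd1, which links glycolysis to glycerol phosphate, had 4.36, 4.33 and 3.02 CPM (1 h), 7.02, 7.30 and 12.6 CPM (6 h) and 2.56, 3.03 and 4.38 CPM (24 h) after CPI-0209, against 0.697, 0.752 and 0.382 CPM in vehicle. All treated libraries exceeded the vehicle libraries, none of which reached 1 CPM. The rise was 7.72-fold (95% interval 4.37 to 13.7), with 2.95 (SE 0.38, adjusted p = 0.0029) on the log2 scale. Pcx, pyruvate carboxylase, which replenishes the citric acid cycle, had 25.2, 23.5 and 25.3 CPM (1 h), 39.7, 38.1 and 48.2 CPM (6 h) and 7.22, 12.997 and 22.03 CPM (24 h) after CPI-0209, against 2.32, 4.62 and 6.11 CPM in vehicle. Its lowest treated library, 24 h replicate 1, came close to the highest vehicle library. The mean log2 fold change of Pcx was 2.49 (SE 0.33, adjusted p = 0.0035). Ogdh, a subunit of the oxoglutarate dehydrogenase complex, rose by 0.92 (SE 0.18, adjusted p = 0.026), with 284, 267 and 289 CPM (1 h), 392, 379 and 346 CPM (6 h) and 159, 186 and 306 CPM (24 h) after CPI-0209, against 147, 136 and 167 CPM in vehicle. Its 24 h replicate 1 library fell inside the vehicle range, and it lost its call without any 1 of the vehicle libraries, 1 h replicate 1 or 3, or 6 h replicate 1 or 2. Pck2, the mitochondrial enzyme that makes phosphoenolpyruvate, had 0.98 (SE 0.24, adjusted p = 0.085) and did not pass.

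Scd1 and Hsd3b6 were the 2 that rose among 27 tested genes of fatty acid and sterol synthesis, whose median was 0.05. Of all tested genes 0.882% were higher. Scd1, which places the first double bond in saturated fatty acids, had 31.7, 24.5 and 23.8 CPM (1 h), 42.4, 44.8 and 64.3 CPM (6 h) and 21.4, 24.04 and 24.4 CPM (24 h) after CPI-0209, against 8.48, 8.60 and 4.96 CPM in vehicle. The groups did not overlap, and the 24 h libraries were close to each other. The rise was 4.27-fold (95% interval 3.09 to 5.90), or 2.09 (SE 0.22, adjusted p = 4.3e-04) on the log2 scale. Hsd3b6, a steroid dehydrogenase, had 10.3, 12.7 and 10.3 CPM (1 h), 22.7, 14.9 and 19.02 CPM (6 h) and 3.73, 7.47 and 22.2 CPM (24 h) after CPI-0209, against 0.232, 0.967 and 1.27 CPM in vehicle. Its 24 h libraries differed about 6-fold among themselves. The mean was 3.99 (SE 0.57, adjusted p = 0.0054), which did not pass without vehicle replicate 2 or with limma-voom. Hsd3b6 belongs to a family of near-identical genes, so reads could have been split among them. Elovl6, which lengthens the fatty acids that Scd1 acts on, had 0.73 (SE 0.20, adjusted p = 0.12) and did not pass.

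Rragd was the 1 gene that rose among 28 tested genes of amino acid sensing, mTORC1 and lysosome control, whose median was -0.04. Of all tested genes 0.882% were higher. Rragd encodes RagD, 1 of the Rag GTPases that bring mTORC1 to the lysosome. It had 30.9, 24.5 and 23.05 CPM (1 h), 33.7, 41.8 and 46.4 CPM (6 h) and 9.20, 16.4 and 15.9 CPM (24 h) after CPI-0209, against 2.56, 5.05 and 4.71 CPM in vehicle. The 6 h libraries lay above those at 1 h, and all 24 h libraries lay below both and above vehicle. The rise was 5.94-fold (95% interval 4.02 to 8.79), with 2.57 (SE 0.26, adjusted p = 4.3e-04) on the log2 scale. Tfeb, a transcription factor of lysosomal genes, had -0.49 (SE 0.25, adjusted p = 0.54) and did not pass.

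Other genes with large rises had no list in common. S100a13, a calcium-binding protein, had 5.45, 9.81 and 5.60 CPM (1 h), 12.2, 14.6 and 23.8 CPM (6 h) and 4.54, 5.74 and 7.66 CPM (24 h) after CPI-0209, against 1.28, 2.15 and 1.91 CPM in vehicle, with no overlap between treated and vehicle libraries. It rose by 2.31 (SE 0.33, adjusted p = 0.0054). Rhbdf1, an inactive rhomboid protein that regulates the traffic of growth factors, Cystm1, a small membrane protein, and Ccdc92b, a coiled-coil protein, had 9, 12 and 15 counts over all vehicle libraries, against 409, 566 and 285 over all treated libraries. Scaled to library size, the count ratio was 16.2 for Rhbdf1 (95% exact binomial interval 8.46 to 35.7). It was 16.8 for Cystm1 (9.56 to 32.8) and 6.78 for Ccdc92b (4.04 to 12.3). Each lost its call without vehicle replicate 2. Calcoco1, a coactivator and autophagy receptor, averaged 32.3 ± 5.95, 54.6 ± 7.87 and 21.9 ± 4.07 CPM at 1, 6 and 24 h, against 11.9 ± 1.13 CPM in vehicle (SD, n = 3). It rose by 1.499 (SE 0.18, adjusted p = 0.0015). Pdzk1ip1, a small membrane protein, had 39.6, 35.7 and 48.1 CPM (1 h), 80.2, 87.3 and 93.5 CPM (6 h) and 56.7, 48.5 and 62.04 CPM (24 h) after CPI-0209, against 25.6, 21.2 and 24.9 CPM in vehicle, and rose by 1.29 (SE 0.15, adjusted p = 0.001). Sla, an adaptor that dampens antigen receptor signalling, was highest at 1 h, with 583, 552 and 643 CPM (1 h), 331, 332 and 367 CPM (6 h) and 419, 338 and 353 CPM (24 h) after CPI-0209, against 218, 226 and 278 CPM in vehicle. Its log2 fold change of 0.81 (SE 0.14, adjusted p = 0.012) was lost without vehicle replicate 1 or 2 and with library totals alone. Sla overlaps Tg on the opposite strand.

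Calcrl and Ptpn14 had smaller log2 fold changes at 24 h than at 1 and 6 h. Neither differed among the times by the edgeR F test (adjusted p = 0.11 for both). Calcrl, the receptor subunit for adrenomedullin and calcitonin gene-related peptide, had 619.7, 873 and 642 CPM (1 h), 1505, 1494 and 1737 CPM (6 h) and 195, 485 and 1081 CPM (24 h) after CPI-0209, against 118, 143 and 198 CPM in vehicle. Its 24 h libraries spread from just below the highest vehicle library to over 5 times that level. The mean was 2.51 (SE 0.40, adjusted p = 0.0086), which was lost without vehicle replicate 1 or 2. Ptpn14, a phosphatase that restrains YAP signalling, had 25.2, 21.9 and 20.8 CPM (1 h), 27.03, 31.7 and 40.7 CPM (6 h) and 4.66, 9.75 and 21.1 CPM (24 h) after CPI-0209, against 4.88, 1.93 and 3.56 CPM in vehicle. In 24 h replicate 1 it lay within the vehicle range. The mean difference was 2.58 (SE 0.41, adjusted p = 0.0085), lost without vehicle replicate 2. Plag1, a zinc finger transcription factor, had 5.99, 4.56 and 6.89 CPM (1 h), 14.8, 7.55 and 12.7 CPM (6 h) and 9.78, 11.6 and 16.4 CPM (24 h) after CPI-0209, against 3.37, 2.47 and 4.71 CPM in vehicle. Its highest values were at 24 h and 6 h and all treated libraries but 1 of the 1 h group exceeded the highest vehicle library. It rose by 1.43 (SE 0.29, adjusted p = 0.032), a call that ended without vehicle replicate 1, 2 or 3, 1 h replicate 1 or 3, or 6 h replicate 1 or 3.

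Genes of reticulocytes and red cells formed the largest group described by a list. Of 38 tested, 8 were higher, against 0.882% of all tested genes: Slc4a1, Epb42, Ank1, Trim58, Trim10, Car2, Gata1 and Tmod1. The list median was 0.58 and 33 of 38 were above 0. Of 22 tested genes of reticulocyte maturation by ubiquitin and autophagy, 5 were higher: Ubb, Atg4a, Trim58, Sqstm1 and Xpo7, with a median of 0.59. Together these are 12 of the 118 genes. With the mean of 1 and 24 h, which leaves out the 6 h libraries, none of the 12 passed by edgeR, and the list medians were 0.19 for red cell genes and 0.26 for maturation genes. Only Gata1 among the 12 had all 9 treated libraries above vehicle, whereas 62 of the other 106 did.

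Epb42, which anchors the red cell membrane to its skeleton, had 503, 505 and 471 CPM (1 h), 1169, 966 and 1199 CPM (6 h) and 127, 279 and 565 CPM (24 h) after CPI-0209, against 103, 152 and 122 CPM in vehicle. The 1 and 6 h libraries were far above vehicle, and 24 h replicate 1 lay within the vehicle range. Its log2 fold change was 2.16 (SE 0.34, adjusted p = 0.0085). Ank1, ankyrin of the red cell skeleton, had 235, 244 and 251 CPM (1 h), 453, 479.7 and 377 CPM (6 h) and 108, 134 and 258 CPM (24 h) after CPI-0209, against 107, 107 and 135 CPM in vehicle, and 24 h replicate 1 again lay within the vehicle range. It rose by 1.17 (SE 0.22, adjusted p = 0.023). Tmod1, which caps the actin filaments of that skeleton, averaged 78.5 ± 2.69, 141 ± 14.4 and 48.5 ± 32.4 CPM at 1, 6 and 24 h, against 28.7 ± 7.41 CPM in vehicle (SD, n = 3), and rose by 1.498 (SE 0.31, adjusted p = 0.032). Gata1, the transcription factor that directs red cell and platelet precursors, had 88.2, 98.4 and 109.95 CPM (1 h), 194, 172 and 176 CPM (6 h) and 86.2, 87.3 and 145 CPM (24 h) after CPI-0209, against 46.8, 57.8 and 59.04 CPM in vehicle. Here the lowest treated library still exceeded all of vehicle. Gata1 rose by 1.18 (SE 0.17, adjusted p = 0.0055). Trim10 and Trim58 are ubiquitin ligases of late red cell development. Trim10 had 528, 635 and 512 CPM (1 h), 1239, 1169 and 1419.8 CPM (6 h) and 156, 270.1 and 612 CPM (24 h) after CPI-0209, against 129, 195 and 230.4 CPM in vehicle and rose by 1.76 (SE 0.33, adjusted p = 0.021), whereas Trim58 rose by 1.28 (SE 0.25, adjusted p = 0.024). Trim10 lay within the vehicle range in 24 h replicate 1, as Epb42 did.

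Ubb, which encodes ubiquitin, had 2552, 2702 and 2132 CPM (1 h), 4267, 4529 and 5141 CPM (6 h) and 1162, 1521 and 3157 CPM (24 h) after CPI-0209, against 966, 1255 and 1201 CPM in vehicle. Its 24 h replicate 1 fell inside the vehicle range, and the mean difference was 1.30 (SE 0.26, adjusted p = 0.031). Ubb is made of repeats shared with other ubiquitin genes, so its counts are uncertain. Atg4a, a protease of autophagy, had 119.7, 151 and 129 CPM (1 h), 301, 267 and 347 CPM (6 h) and 30.3, 66.3 and 148 CPM (24 h) after CPI-0209, against 36.5, 49.8 and 55.2 CPM in vehicle and rose by 1.66 (SE 0.35, adjusted p = 0.037). Sqstm1, an autophagy receptor, rose by 1.07 (SE 0.22, adjusted p = 0.031), and Xpo7, a nuclear export factor of maturing red cells, by 1.29 (SE 0.27, adjusted p = 0.037). In 24 h replicate 1, Atg4a was below all vehicle libraries. None of the 12 genes passed without vehicle replicate 1 or 2, and Slc4a1, Car2, Tmod1, Ubb, Atg4a, Sqstm1 and Xpo7 did not pass without any 1 of the 1 or 6 h libraries either. Ank1 and Trim58 also lost their call without vehicle replicate 3, 1 h replicate 3 or 6 h replicate 1, and Epb42 and Trim10 without vehicle replicate 3.

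The promoters of Epb42 (chr2:121036828-121037127, minus strand) and Trim10 (chr17:36869324-36869623, plus strand), from RefSeq on GRCm38.p6, are shown because they hold AGATAA, a motif that GATA factors bind. It was searched on both strands and is in capitals, here as its reverse complement TTATCT.
Epb42: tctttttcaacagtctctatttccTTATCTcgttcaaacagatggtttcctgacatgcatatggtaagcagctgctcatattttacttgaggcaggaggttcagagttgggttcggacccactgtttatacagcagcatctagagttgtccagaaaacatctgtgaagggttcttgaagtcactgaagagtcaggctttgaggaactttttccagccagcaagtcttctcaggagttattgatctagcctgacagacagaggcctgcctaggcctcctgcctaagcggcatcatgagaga
Trim10: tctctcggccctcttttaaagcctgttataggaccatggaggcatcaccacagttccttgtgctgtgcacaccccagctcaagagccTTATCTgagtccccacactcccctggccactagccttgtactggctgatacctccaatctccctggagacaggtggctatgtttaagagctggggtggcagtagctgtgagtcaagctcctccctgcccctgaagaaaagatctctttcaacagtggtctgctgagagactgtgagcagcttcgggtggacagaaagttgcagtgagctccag
The motif was present in 6.643% of the promoters of all tested genes and in 7 of 87 (8.046%) of those of genes called higher. Of 8 promoters from the red cell lists, 2 held it, the ones shown here. The Hsd3b6 window printed above also holds it. Because both genes were picked for the motif, its presence in them is no test. A match describes the letters of the window and is not a binding site.

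The level of the red cell list moved with that of the genes called higher. The mean log2 CPM of its 38 genes was 7.63, 7.73 and 7.54 (1 h), 8.55, 8.41 and 8.43 (6 h) and 6.55, 7.04 and 8.09 (24 h) after CPI-0209, against 6.99, 7.13 and 7.34 in vehicle. For the 12 genes called higher from the 2 red cell lists, the median log2 difference from the vehicle mean was 1.27, 1.39 and 1.33 (1 h), 2.13, 2.06 and 2.17 (6 h) and -0.14, 0.42 and 1.44 (24 h). For the other 106 genes it was 1.04, 1.04 and 1.04 (1 h), 1.90, 1.75 and 1.87 (6 h) and 0.53, 0.65 and 1.26 (24 h). In 24 h replicate 1, where the red cell list was lowest of all libraries, 1 of the 12 and 72 of the 106 were above all vehicle libraries. There 25 of the 118 were over 1 log2 unit above the vehicle mean, none of them in the red cell lists. These values describe the libraries, since 8 of the 38 genes are among the 118.

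With the mean of the red cell list as a covariate, an alternative chosen after seeing the data, 146 genes were higher and 163 lower. The higher ones included 88 of the 118, and 1 of the 7 lower genes passed. The covariate was itself above vehicle in all 1 and 6 h libraries. The counts in this fit therefore cannot separate red cell content from treatment. Runx1t1 (2.53, adjusted p = 3.0e-04), Mapre3 (3.31, adjusted p = 0.001), Car8 (3.39, adjusted p = 0.0021), Scd1 (2.09, adjusted p = 0.0014) and Rragd (2.30, adjusted p = 0.0014) had log2 fold changes of that size under the covariate. In that fit 7 of the 38 red cell genes were higher and 5 lower. The covariate is the mean of these same 38 genes, so values on both sides of 0 (median -0.07) were built in. The share of higher among called genes was 47.2%, against 94.4% without the covariate.

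**Figure D3:**
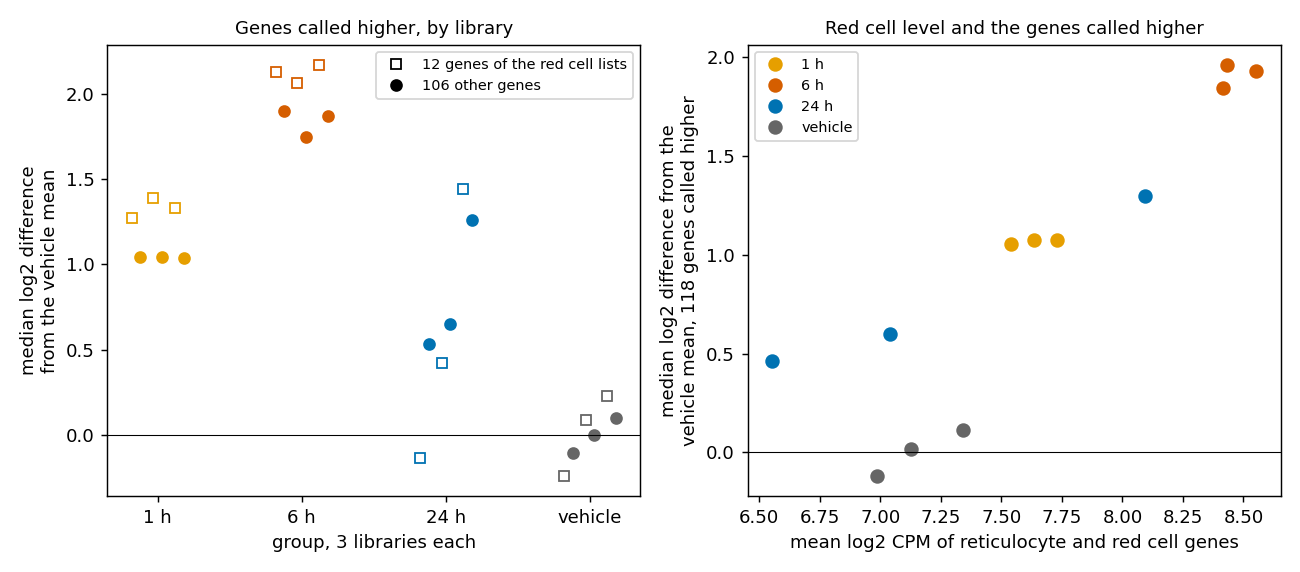
Left, median log2 difference from the vehicle mean of the 12 genes called higher from the red cell lists (open squares) and the 106 others (filled circles), by library. The 106 are outside those lists but include red cell genes such as Blvrb and Cat. Right, median of all 118 against the mean log2 CPM of 38 red cell genes, 1 point per library. At 24 h the 106 other genes lie at 0.53 to 1.26, whereas the 12 lie at -0.14 to 1.44.

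Haem, platelet and antioxidant genes gave 1 gene higher in each list and adult globins 0, against 0.882% of all tested genes. Counts this small describe single genes and not the lists. Of 22 genes of haem synthesis and iron handling, Blvrb was higher (list median 0.10). Blvrb, which reduces biliverdin and flavins in red cells, had 166, 187 and 164 CPM (1 h), 393, 346 and 458 CPM (6 h) and 65.8, 121 and 258 CPM (24 h) after CPI-0209, against 56.1, 74.1 and 87.8 CPM in vehicle and rose by 1.58 (SE 0.31, adjusted p = 0.028). Its call ended without any 1 of the vehicle or 1 h libraries or without 6 h replicate 1 or 3. Alad, an early enzyme of haem synthesis, had 0.78 (SE 0.20, adjusted p = 0.094) and did not pass. Alas2, which starts the pathway, had 0.10 (SE 0.27, adjusted p = 0.95). None of the 4 adult globins passed, although all 4 were above 0 with a median of 0.56 and 3 were higher at an unadjusted p under 0.05. Their near-identical copies make the counts uncertain. Of 29 platelet and megakaryocyte genes, Thbs1 was higher (list median 0.21). Thbs1, the adhesive protein thrombospondin, had 455, 501 and 478 CPM (1 h), 1071, 958 and 892 CPM (6 h) and 575, 609 and 926 CPM (24 h) after CPI-0209, against 313, 355 and 409 CPM in vehicle and rose by 0.94 (SE 0.17, adjusted p = 0.018), lost without vehicle replicate 1 or 2. Cat, catalase, which is abundant in red cells, was the 1 of 22 antioxidant genes called, with 1002, 1034 and 927 CPM (1 h), 1569, 1536 and 1344 CPM (6 h) and 411, 624 and 1011 CPM (24 h) after CPI-0209, against 370.3, 453 and 413 CPM in vehicle and a log2 fold change of 1.28 (SE 0.22, adjusted p = 0.015). It lost its call without any 1 of the vehicle libraries.

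**Figure D4:**
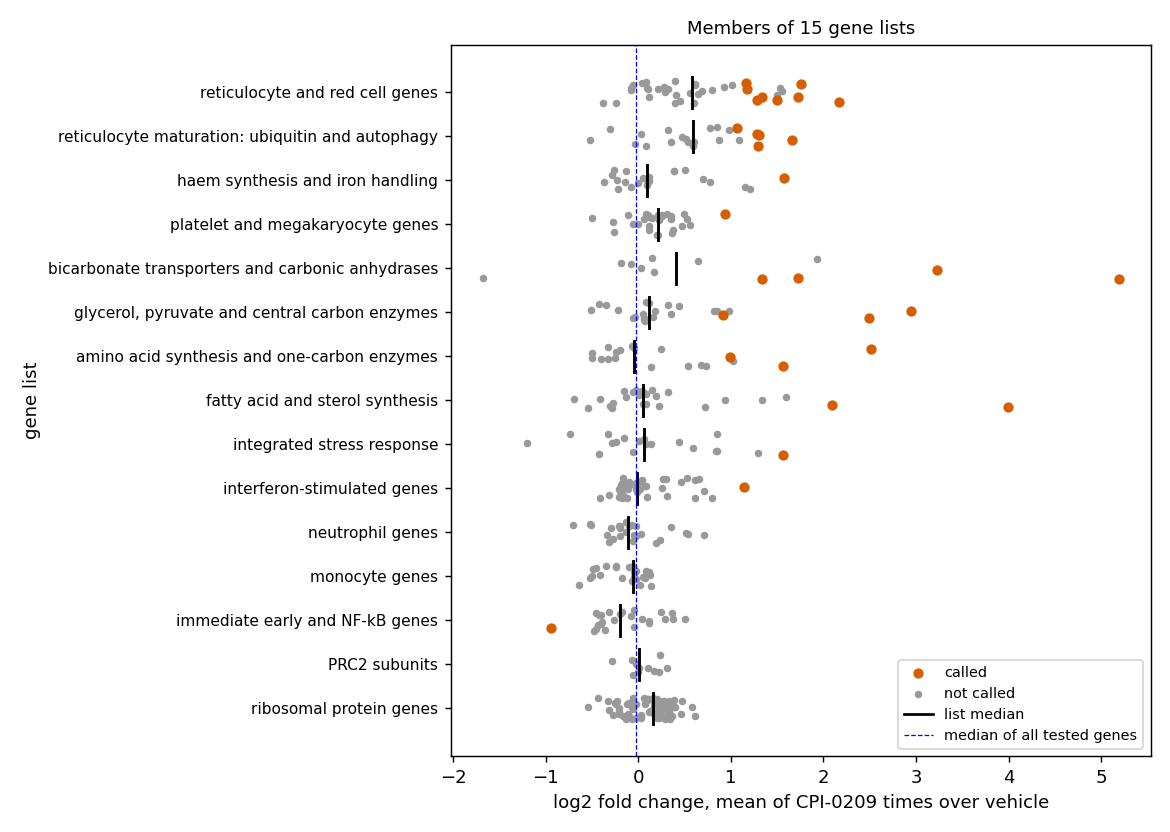
Log2 fold change of the mean of the CPI-0209 times over vehicle for the tested members of 15 gene lists (points, orange where called), with each list's median (black bar) and the median of all tested genes (dashed line). The 2 reticulocyte lists have medians near 0.6, and PRC2 subunits lie close to 0 with none called.

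Amino acid synthesis and one-carbon enzymes gave 3 genes higher of 19 tested, against 0.882% of all tested genes, with a list median of -0.05. Asns, which makes asparagine, had 23.01, 27.5 and 25.2 CPM (1 h), 64.2, 59.9 and 80.1 CPM (6 h) and 13.97, 15.7 and 26.6 CPM (24 h) after CPI-0209, against 8.02, 9.46 and 14.8 CPM in vehicle. The 6 h libraries were far above the others, and 24 h replicate 1 lay just under the highest vehicle library. Asns rose by 1.57 (SE 0.24, adjusted p = 0.0068). Pycr1, which makes proline, had 4.63, 5.25 and 5.06 CPM (1 h), 10.3, 10.5 and 7.84 CPM (6 h) and 2.33, 7.26 and 7.03 CPM (24 h) after CPI-0209, against 0.581, 0.645 and 2.16 CPM in vehicle. Every treated library exceeded vehicle, 24 h replicate 1 by little. It rose by 2.51 (SE 0.46, adjusted p = 0.018). Glul, which makes glutamine, had 146, 172 and 184 CPM (1 h), 249, 257 and 271 CPM (6 h) and 89.1, 110.04 and 176 CPM (24 h) after CPI-0209, against 101, 71.9 and 92.6 CPM in vehicle and rose by 0.99 (SE 0.19, adjusted p = 0.024). Asns and Pycr1 lost their call without vehicle replicate 1 or 2, and Glul without any 1 of the vehicle libraries, 1 h replicate 3 or 6 h replicate 3. Shmt2 and Mthfd2, mitochondrial one-carbon enzymes, had 1.02 (SE 0.32, adjusted p = 0.20) and 0.68 (SE 0.23, adjusted p = 0.28) and did not pass. Of 19 genes of the integrated stress response Asns alone passed (list median 0.06), and Atf5, a transcription factor of that response, had 1.29 (SE 0.30, adjusted p = 0.057).

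The promoters of Asns (chr6:7693160-7693459, minus strand) and Pycr1 (chr11:120643699-120643998, minus strand), from RefSeq on GRCm38.p6, are shown because both hold TGATGNAA, the core of the amino acid response element to which ATF4 binds. The motif was searched on both strands and is in capitals.
Asns: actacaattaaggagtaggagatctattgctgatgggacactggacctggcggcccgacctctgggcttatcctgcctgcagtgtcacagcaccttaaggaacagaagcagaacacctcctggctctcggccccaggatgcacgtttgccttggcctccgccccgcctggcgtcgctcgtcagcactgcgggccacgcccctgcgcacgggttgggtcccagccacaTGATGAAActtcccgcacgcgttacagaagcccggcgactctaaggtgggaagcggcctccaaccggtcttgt
Pycr1: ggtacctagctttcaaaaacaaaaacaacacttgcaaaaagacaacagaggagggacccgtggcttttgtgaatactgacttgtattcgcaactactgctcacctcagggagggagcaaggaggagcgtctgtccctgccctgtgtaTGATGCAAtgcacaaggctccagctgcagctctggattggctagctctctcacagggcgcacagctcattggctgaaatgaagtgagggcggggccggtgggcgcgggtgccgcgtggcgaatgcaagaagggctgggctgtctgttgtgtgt
It was present in 2.267% of the promoters of all tested genes and in 5 of 87 (5.747%) of those of genes called higher. Pdzk1ip1 and Calcrl were among the others that held it. The Glul promoter did not, whereas that of Atf3, called lower, did. Because Asns and Pycr1 were picked for the motif, its presence in them is no test. With promoters missing for many called genes, the shares were not compared.

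Single members of other lists were called higher, as were 0.882% of all tested genes. A call of 1 gene describes that gene and not its list. Ifi27 was higher among 38 interferon-stimulated genes, whose median was -0.01. It had 28.9, 29.7 and 25.5 CPM (1 h), 61.5, 55.2 and 81.4 CPM (6 h) and 16.4, 17.8 and 25.9 CPM (24 h) after CPI-0209, against 13.2, 15.9 and 16.2 CPM in vehicle, and rose by 1.14 (SE 0.18, adjusted p = 0.0086), lost without vehicle replicate 1 or 2. Oas3, Usp18 and Isg15 of the same list had 0.66, adjusted p = 0.059, 0.79, adjusted p = 0.075 and 0.71, adjusted p = 0.17. Lat, an adaptor of T cell receptor signalling that NK cells and platelets also carry, rose by 0.78 (SE 0.17, adjusted p = 0.045) among 13 T cell genes with a median of 0.17, while 5 defining T cell markers were near 0. Hsp90ab1, a heat shock chaperone, rose by 0.88 (SE 0.19, adjusted p = 0.04) among 18 genes (median 0.05). Psmd2, a subunit of the proteasome, rose by 0.80 (SE 0.16, adjusted p = 0.032) among 36 (median -0.01). None of Lat, Hsp90ab1 and Psmd2 passed with library totals alone. Lat lost its call without any 1 of the vehicle or 6 h libraries or 1 h replicate 1 or 3, Hsp90ab1 without vehicle replicate 2 or 3 or any 1 of the 1 or 6 h libraries, and Psmd2 without any 1 of the vehicle libraries, 1 h replicate 1 or 3, or 6 h replicate 1 or 2.

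Several genes rose by about the same amount at each time. Braf, a kinase of the MAP kinase pathway, had 211, 255 and 248 CPM (1 h), 306, 322 and 299 CPM (6 h) and 225, 234 and 326 CPM (24 h) after CPI-0209, against 113, 133 and 180.2 CPM in vehicle. Every treated library was above vehicle, and the log2 fold changes were 0.75, 1.12 and 0.88 at 1, 6 and 24 h. The mean was 0.92 (SE 0.17, adjusted p = 0.019). Dusp16, a phosphatase that inactivates JNK and p38, averaged 163 ± 3.58, 134 ± 11.4 and 154 ± 18.5 CPM at 1, 6 and 24 h, against 93.4 ± 22.4 CPM in vehicle (SD, n = 3). Its relative Dusp10 averaged 15.2 ± 2.67, 19.5 ± 2.77 and 17.2 ± 3.12 CPM at 1, 6 and 24 h, against 8.73 ± 2.11 CPM in vehicle (SD, n = 3). Their log2 fold changes were 0.68 (SE 0.15, adjusted p = 0.048) and 0.98 (SE 0.20, adjusted p = 0.037). Nbr1, an autophagy receptor, averaged 105 ± 14.2, 107 ± 14.4 and 85.8 ± 14.3 CPM at 1, 6 and 24 h, against 58.9 ± 4.59 CPM in vehicle (SD, n = 3), and rose by 0.75 (SE 0.14, adjusted p = 0.024). Of the 118, 8 had a range under 0.5 log2 units over the times. A call in the mean without a call among times does not show that a gene was level. Braf lost its call without vehicle replicate 1 or 2, and Nbr1 without any 1 of the vehicle libraries, 1 h replicate 1 or 3, or 6 h replicate 1. Dusp10 and Dusp16 lost theirs without most single libraries of the vehicle, 1 h and 6 h groups, and Dusp16 without 24 h replicate 2. None of Dusp10, Dusp16 and Nbr1 passed with library totals alone.

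The other highly abundant genes called higher were Eif5, Wdr26 and Phospho1. Eif5, a translation initiation factor, had 2484, 3011 and 2703 CPM (1 h), 6369, 6531 and 7053 CPM (6 h) and 817, 1592 and 3467 CPM (24 h) after CPI-0209, against 898, 1142 and 1150.0 CPM in vehicle and rose by 1.63 (SE 0.33, adjusted p = 0.031). Wdr26, part of a ubiquitin ligase, averaged 1266 ± 43.9, 2422 ± 302 and 939.97 ± 529 CPM at 1, 6 and 24 h, against 595 ± 77.8 CPM in vehicle (SD, n = 3), and rose by 1.26 (SE 0.27, adjusted p = 0.042). Phospho1, a phosphatase of bone and red cells, averaged 1164 ± 90.2, 1796 ± 79.6 and 909.98 ± 367 CPM at 1, 6 and 24 h, against 628 ± 23.2 CPM in vehicle (SD, n = 3), and rose by 0.98 (SE 0.20, adjusted p = 0.031). All were lowest among treated libraries in 24 h replicate 1, and all lost their call without any 1 of the vehicle, 1 h or 6 h libraries, Wdr26 also without 24 h replicate 2. Phospho1 overlaps Abi3 and Zfp652, which had log2 fold changes of 0.26 and 0.13.

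Of the 7 lower genes, 5 have names other than predicted ones. Atf3, a stress-induced transcription factor, had 6.67, 5.93 and 6.57 CPM (1 h), 5.23, 5.07 and 5.14 CPM (6 h) and 10.8, 8.66 and 8.75 CPM (24 h) after CPI-0209, against 11.3, 12.3 and 15.5 CPM in vehicle. The 6 h libraries were lowest and 24 h replicate 1 came nearest to vehicle. It fell by 0.94 on the log2 scale (SE 0.17, adjusted p = 0.019). Epc1, a subunit of the NuA4 histone acetyltransferase complex, had 16.5, 22.01 and 15.7 CPM (1 h), 21.5, 19.9 and 16.97 CPM (6 h) and 31.2, 27.3 and 27.7 CPM (24 h) after CPI-0209, against 40.8, 31.9 and 37.2 CPM in vehicle, a fall of 0.76 on the log2 scale (SE 0.15, adjusted p = 0.023). Its highest treated library was just under its lowest vehicle library. Sart1, a splicing factor, had 5.85, 3.65 and 2.26 CPM (1 h), 4.93, 7.55 and 3.47 CPM (6 h) and 2.68, 1.19 and 2.97 CPM (24 h) after CPI-0209, against 13.2, 8.81 and 7.89 CPM in vehicle, a fall of 1.47 on the log2 scale (SE 0.32, adjusted p = 0.045). Nicn1, a subunit of tubulin polyglutamylase, was scarce, at 0.681, 0.570 and 0.646 CPM (1 h), 0.747, 0.248 and 0.900 CPM (6 h) and 0.466, 1.08 and 0.625 CPM (24 h) after CPI-0209, against 1.86, 1.505 and 5.73 CPM in vehicle. It fell by 2.16 on the log2 scale (SE 0.48, adjusted p = 0.048), with vehicle replicate 3 above the other vehicle libraries. The pseudogene Gad1-ps fell by 0.67 on the log2 scale (SE 0.14, adjusted p = 0.04), and the remaining pair have predicted names.

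The lower calls were few in most fits. Without vehicle replicate 1, 2 or 3 there were 2, 0 or 2, without 1 h replicate 1 or 3 there were 4 or 2, and without 6 h replicate 1 there were 3. Without 24 h replicate 1 or 3 there were 47 or 28. None of the 7 was kept in all 12 fits: Atf3 was lost without any 1 of the vehicle libraries, Epc1 also without 1 h replicate 1 or 3, and Sart1, Nicn1 and Gad1-ps in at least 8 of the 12. At an unadjusted p under 0.05, 535 genes were lower and 870 higher. Atf3 was the 1 gene lower of 25 immediate early and NF-kB genes (list median -0.20), of which Btg2, Zfp36 and Junb had -0.40, adjusted p = 0.13, -0.46, adjusted p = 0.19 and -0.48, adjusted p = 0.25. Epc1 was the 1 lower of 25 regulators of histone acetylation and methylation (median -0.01), and Sart1 of 35 splicing factors (median -0.07). Over all tested genes 0.0523% were lower, and a call of 1 gene describes that gene and not its list.

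None of the 11 tested PRC2 subunits passed in the main edgeR fit or by DESeq2 or limma-voom. In the main fit 0 had an unadjusted p under 0.05, and their median was 0.00. Of all tested genes, 0.934% passed there. With the red cell covariate, chosen after seeing the data, 1 of the 11 was lower and their median was -0.14. Ezh2 had 219, 225 and 194 CPM (1 h), 438, 414 and 372 CPM (6 h) and 86.5, 180.01 and 391 CPM (24 h) after CPI-0209, against 306, 264 and 270.4 CPM in vehicle. It was below vehicle at 1 h and above it at 6 h, and the 24 h libraries lay on both sides. The mean was -0.07 (SE 0.29, adjusted p = 0.97), and over all fits tried it ran from -0.95 to 0.09. Ezh1 averaged 51.4 ± 12.1, 61.9 ± 3.000 and 60.1 ± 11.6 CPM at 1, 6 and 24 h, against 53.7 ± 7.32 CPM in vehicle (SD, n = 3), with 0.10 (SE 0.16, adjusted p = 0.90). Eed, which binds the methylated histone tail, and Suz12, which holds the complex together, had 0.00 (SE 0.17, adjusted p = 1.00) and -0.29 (SE 0.20, adjusted p = 0.69). These RNA values do not measure the activity of the enzyme. None of 20 PRC1 subunits passed by edgeR, DESeq2 or limma-voom (median 0.08), and 1 was lower at an unadjusted p under 0.05. Of 46 Hox, Pax, Tbx and other developmental regulators, typical Polycomb targets, 3 had enough counts to be tested and none passed.

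The neutrophil, granule, monocyte and NK cell lists gave 0 calls in the edgeR test, in which 0.934% of all tested genes passed. At that share, 0 calls says little about lists of this size. Neutrophil genes (26 tested) had a median of -0.11, granule proteins (18) -0.28, monocyte genes (24) -0.06 and NK cell genes (21) 0.04. At an unadjusted p under 0.05, 2 neutrophil genes, 4 granule genes and 5 monocyte genes were lower and 1 NK cell gene was higher. DESeq2 called 1, 1, 2 and 0 genes of these lists, the calls all lower, and limma-voom called 0. Members with the smallest p were Steap4 (-0.51, adjusted p = 0.13), Ltf (-0.89, adjusted p = 0.19), Ly6c2 (-0.52, adjusted p = 0.094) and Gzmb (0.42, adjusted p = 0.45). Ribosomal protein genes (77 tested, median 0.16), oxidative phosphorylation genes (39, median 0.00), histone genes (30, median -0.19) and cell cycle genes (41, median 0.02) also gave none. The same share over all tested genes applies to them. At an unadjusted p under 0.05 the ribosomal list had 9 higher and 1 lower, oxidative phosphorylation 3 and 1, histones 1 and 2, and the cell cycle 3 and 0. DESeq2 called 1, 1, 0 and 2 genes of these lists, all higher, and limma-voom 0. With the red cell covariate, edgeR called 2 granule, 4 ribosomal protein and 2 cell cycle genes lower. Among stem and progenitor genes, Msi2 (1.20, adjusted p = 0.067) and Kit (1.24, adjusted p = 0.18) did not pass.

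The size of the difference varied with time. Log2 fold changes of the 118 had medians of 1.09 at 1 h, 1.93 at 6 h and 0.80 at 24 h, and 109 of them were largest at 6 h, 4 at 1 h and 5 at 24 h. An increase of over 1 unit at every time was found for 34. Against vehicle, 0.194%, 4.84% and 0.105% of all tested genes passed at 1, 6 and 24 h, in comparisons that share the vehicle libraries. Of the 125 genes, 28 differed among the times by an F test, against 0.755% of all tested genes. Asns, with 1.23, 2.67 and 0.80 at 1, 6 and 24 h, had an adjusted p among times of 0.01. Runx1t1 had 2.45, 3.52 and 2.45 and an adjusted p of 0.04, and Rragd had 2.66, 3.30 and 1.75 and 0.038. The count of 28 was 118 without 24 h replicate 1, 188 without 24 h replicate 3 and 2 to 16 without any other single library.

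**Figure D5:**
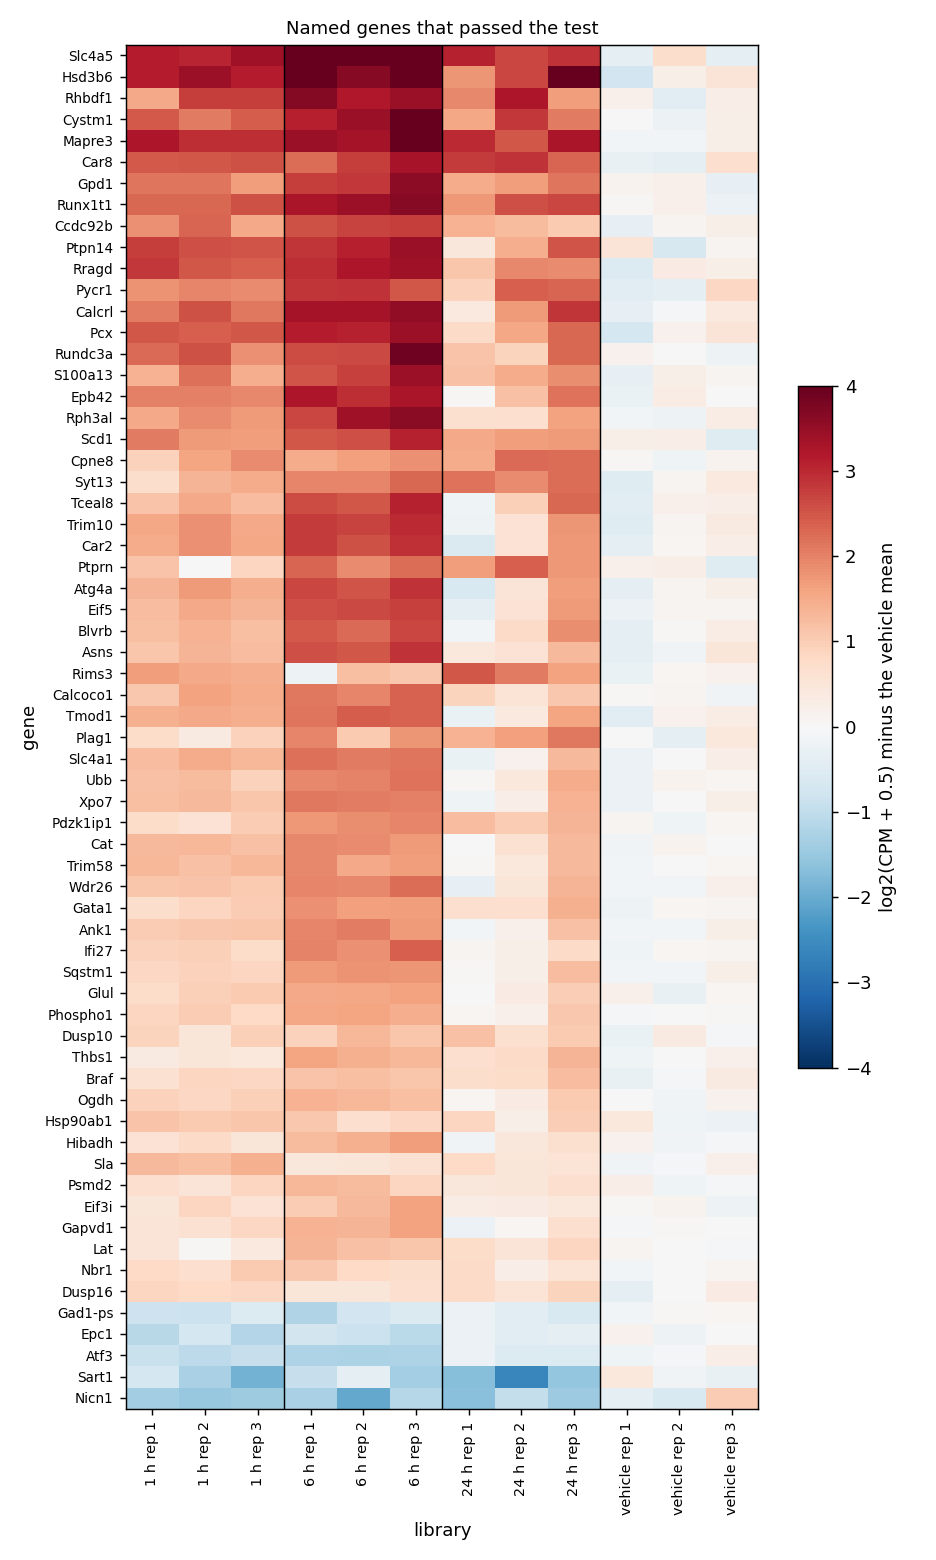
Difference of log2(CPM + 0.5) from the vehicle mean (colour) in each of 12 libraries (columns, CPI-0209 at 1, 6 and 24 h and then vehicle) for the named genes that passed (rows, ordered by log2 fold change). Genes such as Mapre3, Car8 and Scd1 are red in all 9 treated columns, while genes such as Car2, Eif5 and Slc4a1 are near or below the vehicle mean in 24 h replicate 1.

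At the threshold, the called genes with the largest adjusted p were Tceal8 (1.81, adjusted p = 0.048), Dusp16 (0.68, adjusted p = 0.048), Hibadh (0.82, adjusted p = 0.048), Eif3i (0.79, adjusted p = 0.048), Gapvd1 (0.78, adjusted p = 0.048) and Nicn1 (-2.16, adjusted p = 0.048). Just outside it were Pde3b (0.80, adjusted p = 0.053), Prxl2a (1.61, adjusted p = 0.054), Gab1 (1.06, adjusted p = 0.053), Phf8 (0.55, adjusted p = 0.05), Ube2h (0.87, adjusted p = 0.051) and Tax1bp1 (1.10, adjusted p = 0.05). Their effects were of like size on both sides, and 77 further genes were higher and 22 lower at an adjusted p between 0.05 and 0.1.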

How the data were processed

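RNA from whole blood was extracted with a PAXgene blood kit, depleted of ribosomal RNA and sequenced as paired ends on an Illumina HiSeq, per the labels' protocols. The authors deposited whole-number counts per gene for 55367 Ensembl genes of the mouse, with no scaling by depth. Their processing notes name RSEM, whose counts may be rounded estimates, and list a human build although the genes are mouse. The aligner, annotation release and strand setting are not stated in the labels or the header. GENCODE M21 held 55111 of the identifiers.

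Genes were filtered by filterByExpr with the 4 groups (edgeR 4.0.16, R 4.3.3) and libraries were scaled by TMM. The quasi-likelihood model held 1 mean per group and used all 12 libraries. The contrast was the mean of the 3 CPI-0209 group means minus vehicle, and the 3 times were compared by an F test with 2 degrees of freedom. Adjustment was by Benjamini-Hochberg over the 13384 genes left, at a threshold of 0.05. Every adjusted p is from this model unless another tool is named. Intervals on counts cover counting error only.

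The comparison, the members, the 45 gene lists and the rules were chosen with earlier results of these data known. Named genes were, among those with all treated CPM above or below vehicle and a mean of at least 1 log2 CPM, the 16 largest rises and falls. Added to them were the 8 with the highest level, the 8 smallest and 6 largest ranges over the times, all called list members, 4 PRC2 genes, members with the smallest p in a list and the 6 genes on either side of the threshold. Predicted names were counted only, and some genes are not reported here.

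Alternatives were DESeq2 (1.42.0) and its size factors, limma-voom (limma 3.58.1), library totals alone, no filter, 5 CPM in 3 libraries, the treated libraries as 1 group, the mean of each pair of times, a replicate block and fits without each library. A red cell covariate was added after seeing the data.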

Additional observations from a re-analysis of the deposited data

Results flagged for a closer look

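The difference from vehicle was unequal over the times, by the edgeR F test among 1, 6 and 24 h, for 13 of the named genes. In 12 of them the 6 h value was the largest log2 fold change. Ifi27 had 0.89, 2.13 and 0.40 at 1, 6 and 24 h (adjusted p = 0.00556), Rph3al 1.81, 3.40 and 1.10 (adjusted p = 0.00965) and Asns 1.23, 2.67 and 0.80 (adjusted p = 0.0104). Calcoco1 had 1.44, 2.19 and 0.87 (adjusted p = 0.0264), Pdzk1ip1 0.79, 1.86 and 1.22 (adjusted p = 0.0272) and Gapvd1, a regulator of endocytosis, 0.66, 1.46 and 0.22 (adjusted p = 0.0305). For Rragd the values were 2.66, 3.30 and 1.75 (adjusted p = 0.0382), and for Hibadh, an enzyme of valine breakdown, 0.62, 1.48 and 0.35 (adjusted p = 0.0382). Runx1t1 had 2.45, 3.52 and 2.45 (adjusted p = 0.0397), with equal values at 1 and 24 h, and Slc4a5 4.70, 6.503 and 4.35 (adjusted p = 0.0407). Ank1 had 1.07, 1.91 and 0.52 (adjusted p = 0.0460) and Scd1 1.85, 2.77 and 1.66 (adjusted p = 0.0499). In Sla the 1 h value was the largest, with 1.30, 0.51 and 0.62 (adjusted p = 0.0481). Calcoco1, Pdzk1ip1 and Sla are named outside the rule, on the strength of their values.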

How the results depend on the processing

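Of 118 genes higher, 7 lower and 28 that also differed among times, DESeq2's size factors gave 120, 7 and 27. Library totals alone gave 121, 17 and 59, and moved the median of all genes to -0.17, against -0.03. No filter gave 389, 110 and 308, and DESeq2 325, 45 and 221. The share of higher among called genes was 94.4%, against 78.0% with no filter and 47.2% with the red cell covariate. A filter of 5 CPM in 3 libraries gave 140, 12 and 44, and limma-voom 124, 9 and 77. As 1 treated group 5 genes were higher and 0 lower. The means of 1 and 24 h, 1 and 6 h and 6 and 24 h gave 20 and 0, 208 and 18, and 164 and 15. The red cell covariate, chosen after seeing the data, gave 146 and 163. With 1 library left out in turn the counts ran from 14 to 322 higher, 0 to 47 lower and 2 to 188 among times. No log2 fold change of a named called gene turned its sign. The cause of these shifts was not tested.

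The replicate number as a block gave 137 higher, 7 lower and 69 among times. The labels do not say that a number is shared between groups. Of 18 same-numbered pairs of libraries, 2 deviated together at r over 0.1 (range -0.11 to 0.17). Pairs with unlike numbers ran from -0.18 to 0.18, so these values cannot decide whether the numbers pair the samples.

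Depth limits the scarce genes: 1795 tested genes had a mean under 1 log2 CPM, of which 2 were called, and for 2087 genes the 95% interval of the log2 fold change was wider than 2 units.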

Other observations

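Several genes that did not pass were high in single libraries. They were chosen after their values were seen. Vsig4, a complement receptor of tissue macrophages, had 2.996, 0.912 and 18.4 CPM (1 h), 0.896, 7.43 and 0 CPM (6 h) and 2.56, 3.14 and 0 CPM (24 h) after CPI-0209, against 35.8, 0 and 0.382 CPM in vehicle. Cd5l, a secreted protein of tissue macrophages, had 3.95, 0.456 and 14.5 CPM (1 h), 0, 8.04 and 0.129 CPM (6 h) and 0.699, 1.19 and 0.313 CPM (24 h) after CPI-0209, against 22.2, 0 and 0 CPM in vehicle. Tgfb2, a growth factor, had 2.86, 1.25 and 13.2 CPM (1 h), 4.03, 2.72 and 0.386 CPM (6 h) and 1.51, 7.15 and 0 CPM (24 h) after CPI-0209, against 32.1, 0.107 and 8.27 CPM in vehicle, and Naip1, a sensor of bacterial proteins, had 3.81, 1.14 and 10.8 CPM (1 h), 0.597, 4.33 and 0.386 CPM (6 h) and 2.21, 2.17 and 0.938 CPM (24 h) after CPI-0209, against 19.3, 1.29 and 1.53 CPM in vehicle. All 4 were highest in vehicle replicate 1 and next highest in 1 h replicate 3. Zmynd11, a reader of a methylated histone, had 6217 counts in vehicle replicate 2 and 281 to 477 counts in each of the other 11 libraries. Its log2 fold change was -2.39 (SE 0.54, adjusted p = 0.054). Adgra3, an adhesion receptor, had 661 counts in 24 h replicate 2, 32 to 166 in the other treated libraries and 10 to 14 in vehicle, with a log2 fold change of 3.19 (SE 0.84, adjusted p = 0.11).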
